A study of Mus musculus with 2 samples.

Results

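DNA replicating keratinocytes are epidermal cells that copy their genome, and here they were picked out of mouse dorsal skin by the transcripts they carried. A keratinocyte, defined as a kept cell barcode with at least 0.5% of its UMIs (unique molecular identifiers, each a counted transcript) from Krt5 and Krt14, counted as replicating on 2 conditions. It held a UMI of at least 4 of 8 replication genes, Cdc6, Ccne1, Ccne2, Dtl, Uhrf1, Clspn, Mcm10 and E2f1. It also held a UMI of fewer than 4 of 8 mitosis genes, Cenpf, Ccnb1, Cdc20, Aspm, Ube2c, Hmmr, Cenpe and Ccnb2. The rule gave 131 cells of 6753 keratinocytes in the Chrna5 knockout library and 252 of 7110 in the wild-type (WT) library, 383 of 19468 kept barcodes in all. The 16 rule genes chose the cells, so their levels in these cells are a description.

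The study compared skin of Chrna5-/- mice with skin of WT mice, Chrna5 being the gene of a nicotinic acetylcholine receptor subunit. Both groups were treated with vaseline, with 6 days of application, and the study's other arm used imiquimod cream. The mice were female and 6 to 8 weeks old, labelled C57BL/6 (C57BL/6N where breeding is described, C57BL/6J under extraction), and the knockout line had been backcrossed for over 10 generations. Dorsal skin was taken on day 7 and digested with collagenase, and sorting kept the cells that excluded SytoxBlue, a dead-cell dye. Sample labels, title and design name vaseline, but the text on extraction calls the skin imiquimod-treated. How many mice went into a library and which part of Chrna5 was deleted is not stated in the labels. With 1 library per genotype there is no replicate check and no p-value, and every interval below is a 95% interval that covers counting error only.

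A cell commits to replication when E2F transcription factors are released from the retinoblastoma protein and switch on cyclin E and the replication genes. Origins are licensed by loading the MCM ring, which becomes an active helicase with Cdc45 and the GINS complex, and forks then need polymerases, the clamp Pcna, nucleotides and new histones. In the epidermis dividing cells lie mainly in the basal layer and the outer root sheath of the hair follicle, and cells that move into the spinous layer usually leave the cycle.

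To show the sequence that E2F proteins are known to bind, the 300 bases around the start of 4 genes of this programme are given, 250 bases before the start and 50 after it, on the gene's own strand. They come from RefSeq (GRCm38.p6), and capitals mark every match to TTTGGCGC, TTTCCCGC, TTTCGCGC or TTTGCCGC on either strand, so that matches on opposite strands can overlap. Dtl, which encodes a substrate receptor that marks Cdt1 for destruction during replication, has its window at chr1:191575495-191575794 on the minus strand. Clspn, the gene of the checkpoint adaptor claspin, has its window at chr4:126556730-126557029 on the plus strand. Mcm5 at chr8:75109259-75109558 on the plus strand and Mcm6 at chr1:128359656-128359955 on the minus strand encode subunits of the helicase ring.
Dtl: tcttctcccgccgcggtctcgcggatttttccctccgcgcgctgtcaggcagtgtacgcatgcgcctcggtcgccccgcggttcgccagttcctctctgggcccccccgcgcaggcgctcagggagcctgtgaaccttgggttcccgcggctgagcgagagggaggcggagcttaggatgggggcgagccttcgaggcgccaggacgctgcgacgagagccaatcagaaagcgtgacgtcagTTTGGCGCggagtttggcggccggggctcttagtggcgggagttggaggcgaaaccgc
Clspn: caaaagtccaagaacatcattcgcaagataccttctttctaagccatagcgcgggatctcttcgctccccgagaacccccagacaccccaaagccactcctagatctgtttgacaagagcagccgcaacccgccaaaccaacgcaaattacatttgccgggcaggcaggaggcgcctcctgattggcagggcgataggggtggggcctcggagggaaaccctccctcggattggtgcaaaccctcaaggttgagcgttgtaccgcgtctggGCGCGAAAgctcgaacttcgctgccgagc
Mcm5: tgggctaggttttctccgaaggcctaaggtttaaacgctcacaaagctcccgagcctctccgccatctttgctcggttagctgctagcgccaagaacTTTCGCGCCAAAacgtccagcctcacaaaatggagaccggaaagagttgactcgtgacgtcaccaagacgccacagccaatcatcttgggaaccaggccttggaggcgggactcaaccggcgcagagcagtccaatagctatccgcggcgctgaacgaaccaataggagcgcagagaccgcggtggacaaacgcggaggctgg
Mcm6: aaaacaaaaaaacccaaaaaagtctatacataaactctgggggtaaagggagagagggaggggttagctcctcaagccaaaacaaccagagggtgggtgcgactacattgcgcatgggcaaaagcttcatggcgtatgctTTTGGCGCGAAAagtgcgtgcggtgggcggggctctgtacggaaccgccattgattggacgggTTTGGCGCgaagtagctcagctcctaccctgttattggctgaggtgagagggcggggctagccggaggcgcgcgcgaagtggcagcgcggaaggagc
The match in Dtl starts 8 bases before the transcription start, and Clspn has 1 match after it. Mcm5 has 2 overlapping matches and Mcm6 has 3. At least 1 of these 4 words was present in 744 of 32851 mouse promoters of this length (2.26%), and for 704 of 27025 genes. A match was present for 4 of the 7 replication rule genes found in the table (Cdc6, Clspn, Dtl and Uhrf1), for 5 of the 7 helicase genes found (Gins3, Mcm3, Mcm5, Mcm6 and Mcm7) and for 0 of the 8 mitosis rule genes. Matches were also present for 4 of 10 licensing, 9 of 27 fork, 1 of 18 nucleotide and 1 of 20 other late-cycle genes found. These matches are letters in a window, with no measurement of binding.

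Depth was close in both libraries. The replicating cells had a median of 18214 UMIs in the knockout library and 19663 in the WT library, and summed to 2511912 and 5359646 UMIs. All other keratinocytes had medians of 12498 and 12820.5. The libraries shared 34 barcodes, of which 0 were replicating cells in the knockout and 2 in the WT library. A doublet score (from Scrublet, which compares cells with simulated mixtures) of 0.25 or more was found in 23 knockout replicating cells (17.6%) and 34 WT replicating cells (13.5%), against 4.72% and 4.79% of all kept barcodes. Chrna5 itself had 3 UMIs in the kept barcodes of the knockout library and 13 in those of the WT library, and 0 in the replicating cells of either. With the deleted part unknown, these counts do not check the labels.

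Replicating keratinocytes made up a smaller share of the knockout library, although mitotic keratinocytes made up a larger share of it. They were 1.94% of knockout keratinocytes (1.62 to 2.30) and 3.54% of WT keratinocytes (3.13 to 4.0), a ratio of 0.547 (0.444 to 0.674). Keratinocytes with 4 or more mitosis genes were 29.0% of the knockout and 25.6% of the WT keratinocytes, a ratio of 1.13 (1.07 to 1.20). Cells with at least 4 genes of each programme, which are counted among the mitotic cells, were 432 in the knockout (6.4%) and 384 in the WT library (5.4%), a ratio of 1.18 (1.04 to 1.35). Keratinocytes with 4 or more replication genes, whatever their mitosis genes, were 8.34% and 8.95%, with a ratio of 0.932 (0.836 to 1.04) whose interval spans 1.

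**Figure D1:**
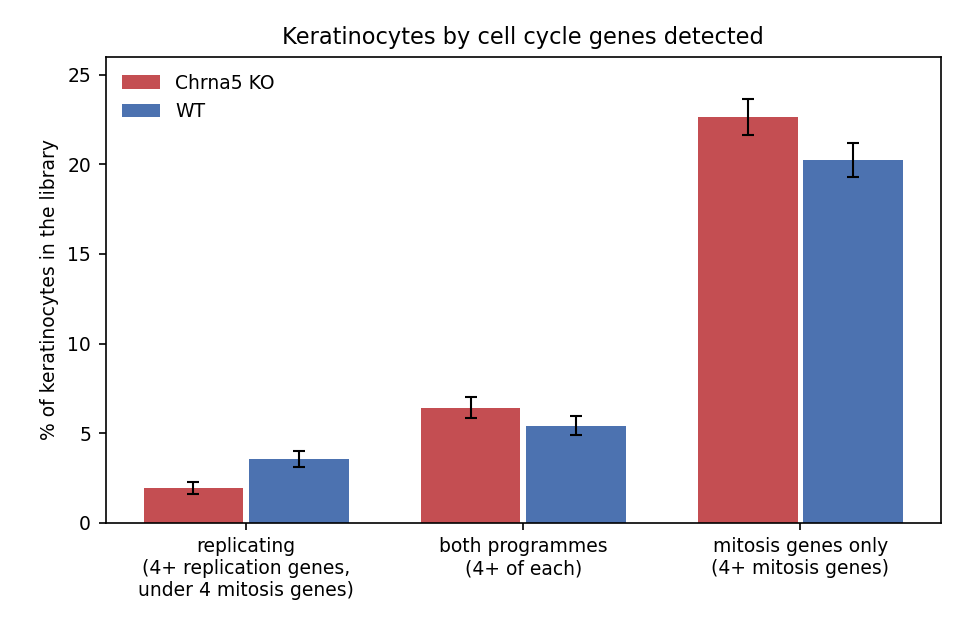
Share of keratinocytes (y axis, percent of the library's keratinocytes) in 3 classes set by the rule genes detected (x axis), Chrna5 KO left of WT, bars with exact 95% binomial intervals for counting error. The replicating class is smaller in the knockout library (1.94% against 3.54%), and both classes with mitosis genes are larger in it.

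The libraries differed in how many mitosis genes accompanied the replication genes. Among keratinocytes with 4 or more replication genes, 432 of 563 knockout cells (76.7%) and 384 of 636 WT cells (60.4%) carried 4 or more mitosis genes. All 8 mitosis genes were found in 204 knockout and 136 WT cells, and none of them in 35 knockout and 82 WT cells. Just inside the rule, with 3 mitosis genes, stood 25 knockout and 46 WT cells, and just outside it, with 4, stood 26 and 52. On the other side of the rule, 62 of the knockout and 115 of the WT replicating cells held exactly 4 replication genes, and 64 knockout and 173 WT keratinocytes missed the rule with 3. Only 2 knockout and 4 WT cells held all 8 replication genes.

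**Figure D2:**
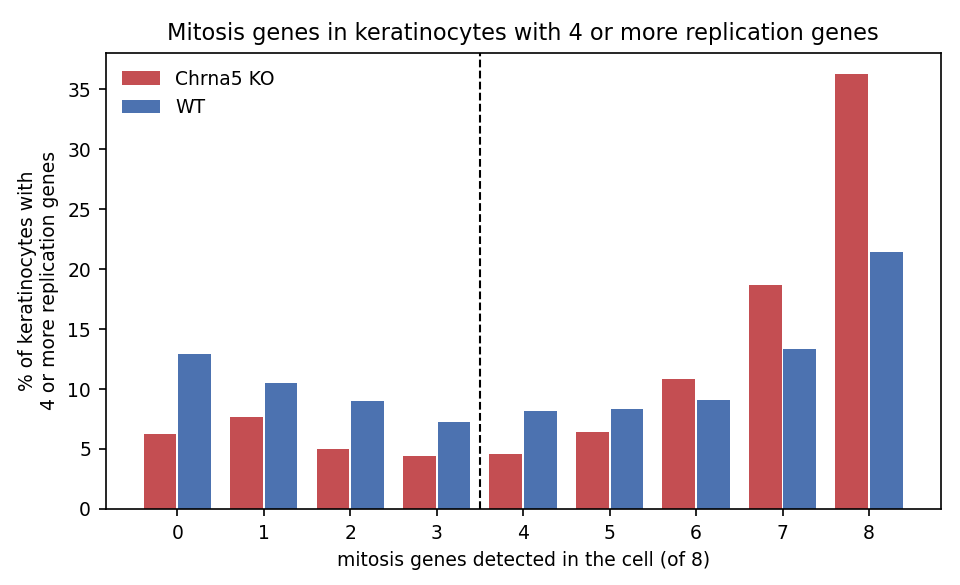
Number of mitosis genes detected per cell (x axis, 0 to 8) in keratinocytes with 4 or more replication genes, as percent of those cells in each library (y axis), Chrna5 KO left of WT. The dashed line is the limit of the replicating class, left of which the WT bars are higher at every step, and the knockout has the higher bar at 6, 7 and 8 genes.

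The difference in share changed when cells were thinned to fewer UMIs. When every keratinocyte was thinned to 10000 UMIs, with 1574 knockout and 1608 WT cells left out as too shallow, the share was 1.97% and 2.89%, a ratio of 0.682 (0.533 to 0.871). Thinned to 5000 UMIs it was 0.801% and 0.721%, a ratio of 1.11 (0.746 to 1.66). Thinning moved cells between classes, since 44 of the 102 knockout and 44 of the 159 WT cells that passed at 10000 UMIs had been mitotic at full depth. At 5000 UMIs these were 23 of 49 and 22 of 47, and 20.5% of the knockout and 9.96% of the WT replicating cells still passed. Without thinning, and with UMI ranges weighted as in the WT library, the share was 1.98% against 3.54%, a ratio of 0.558. From 10000 to 15000 UMIs the ratio was 0.755 (0.456 to 1.25), and in the ranges above it 0.506, 0.537 and 0.322. Below 10000 UMIs the ratios were 3.68 and 1.27, with intervals that span 1.

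The helicase genes, which the rule did not use and some of which are more abundant, gave a larger difference in share. This count was chosen after seeing the data. Keratinocytes with a UMI of at least 5 of 11 helicase genes and fewer than 4 mitosis genes were 387 in the knockout library (5.73%) and 910 in the WT library (12.8%), a ratio of 0.448 (0.399 to 0.502). After thinning to 10000 UMIs they were 5.75% and 11.6%, and after thinning to 5000 UMIs 2.39% and 3.65%, with ratios of 0.495 and 0.654. They included 120 of the 131 knockout and 246 of the 252 WT replicating cells, which were 31.0% and 27.0% of them. With no limit on mitosis genes the shares were 18.2% and 23.6%, a ratio of 0.769 (0.720 to 0.821).

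Replicating cells were also counted by the share of UMIs from the spinous keratin genes Krt1 and Krt10. Where these made up under 0.05% of the UMIs, 2.47% of knockout and 4.13% of WT keratinocytes met the rule. From 0.05 to 0.2% the shares were 1.79% and 4.13%. At 1% or more, 1 of 622 knockout and 4 of 588 WT keratinocytes met it (0.161% and 0.680%). The ratio of the libraries was 0.598 in the lowest of the 4 ranges (0.472 to 0.759) and 0.432 in the next (0.260 to 0.720).

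Along Krt17, a keratin of the outer root sheath that also marks stressed epidermis, the libraries were made up differently. Cells with under 0.02% of their UMIs from Krt17 were 42.3% of knockout and 18.7% of WT keratinocytes. Of these, 1.44% and 2.33% met the rule, a ratio of 0.616 (0.388 to 0.978). Cells with 0.1 to 0.5% were 18.9% of knockout and 42.3% of WT keratinocytes. In that range 2.89% and 3.60% of cells met the rule, a ratio of 0.805 (0.557 to 1.16). Between 0.02 and 0.1% the shares were 1.87% and 4.18%, a ratio of 0.447 (0.317 to 0.630). At 0.5% or more, 6 of 104 knockout and 16 of 458 WT keratinocytes met the rule, 5.77% and 3.49%, a ratio of 1.65 (0.662 to 4.12). With the ranges weighted as in the WT library, the knockout share was 2.47% against 3.54%, a ratio of 0.697. Whether the makeup by Krt17 bears on the difference in share was not tested further.

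The label was checked against genes that the rule left out. Of 6780 measured genes, those with at least 100 UMIs over the replicating cells of both libraries, 627 (9.25%) were at least 1.5-fold higher in replicating than in other keratinocytes in both libraries and 72 (1.06%) at least as far lower. These fractions describe cells chosen by their own transcripts. All 10 measured helicase genes were among the higher ones, as were 30 of 32 fork genes, 17 of 19 nucleotide genes and 7 of 9 licensing genes. All 21 measured late-cycle genes outside the rule were among them too, so these ratios do not separate replicating cells from other cycling cells. Among the 10 genes with the highest ratios in the lower of the 2 libraries, of those with at least 300 UMIs in the replicating cells, were Hist1h2ap, Hist1h1b, Hist1h2ae, Ccna2, Rad51ap1, Pbk, Rrm2, Pclaf and Asf1b. Ccna2 was lower in replicating than in mitotic keratinocytes, and its levels by count of mitosis genes are given below. So were Hist1h2ap, Hist1h1b, Hist1h2ae and Pbk, with ratios of replicating over mitotic from 0.277 to 0.411. In knockout and WT, this ratio was 0.894 and 0.886 for Pclaf, 1.14 and 1.48 for Rad51ap1, and 1.15 and 1.03 for Asf1b. Pclaf, which encodes a partner of Pcna, had 393 CPM (UMIs scaled to the same fixed total in every class) in knockout and 363 CPM in WT replicating cells, against 14.9 and 21.3 CPM in other keratinocytes. Asf1b, a histone chaperone gene, had 47.8 and 42.4 CPM, against 2.31 and 3.05 CPM in other keratinocytes. Among the 10 genes lowest against other keratinocytes, named after their values were seen, were the spinous keratin genes Krt1, Krt10 and Krt77 and the upper follicle keratin gene Krt79.

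The share of cells with a UMI was set beside that in dermal barcodes, those with at least 1% of UMIs from collagen genes, which should lack most of this programme. Mcm5 had a UMI in 89.3% of knockout and 91.7% of WT replicating cells, and in 8.88% and 17.2% of other keratinocytes. In the 91 knockout and 139 WT dermal barcodes, with median depths of 5193 and 5547 UMIs, the Mcm5 shares were 1.10% and 1.44%. Cdc45 was about as rare there, at 1.10% and 0.719%, but several genes were found more often. Mcm3 had dermal shares of 8.79% and 5.76%, and Mki67 of 7.69% and 9.35%. Pcna had 21.98% and 20.86%, against 39.1% and 43.9% of other keratinocytes. For E2f1 the dermal share was above that of other keratinocytes in the knockout (7.69% against 4.65%) and below it in the WT library (5.76% against 8.2%). Thinned to 10000 UMIs, 73.3% of knockout and 77.6% of WT replicating cells still held an Mcm5 UMI, against 8.38% and 16% of other keratinocytes.

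Within the replicating cells, other transcripts differed with the count of mitosis genes. Ung, which removes uracil from DNA, had 45.6 CPM in the 35 knockout cells with 0 mitosis genes, 57.2 CPM in the 96 with 1 to 3, and 13.1 CPM in the 432 cells with both programmes. The same classes of the WT library, of 82, 170 and 384 cells, had 52.6, 59.4 and 12.9 CPM. Cyclin D1 (Ccnd1), a cyclin of early G1, was also lowest in cells with both programmes, at 173, 132 and 45.5 CPM in the knockout and 153, 169 and 68.7 CPM in the WT library. The linker histone gene Hist1h1b went the other way, at 15.2, 154 and 863 CPM in the knockout and 49.0, 205 and 742 CPM in the WT library. So did cyclin A2 (Ccna2), at 13.7, 47.5 and 167 CPM in the knockout and 28.4, 47.8 and 157 CPM in the WT library. Summed over 11 genes, the helicase was highest in the middle class, at 960, 1104 and 682 CPM in the knockout and 968, 1023 and 701 CPM in the WT library. Fork genes summed to 1886, 2279 and 2101 CPM in the knockout and 1763, 2102 and 2025 CPM in the WT library. The replicating class is therefore not a count of all cells that copy their genome. Cells just short of the rule, with 3 replication genes, had 47.8 and 42.3 CPM of Ung and 793 and 830 CPM of helicase transcripts.

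**Figure D3:**
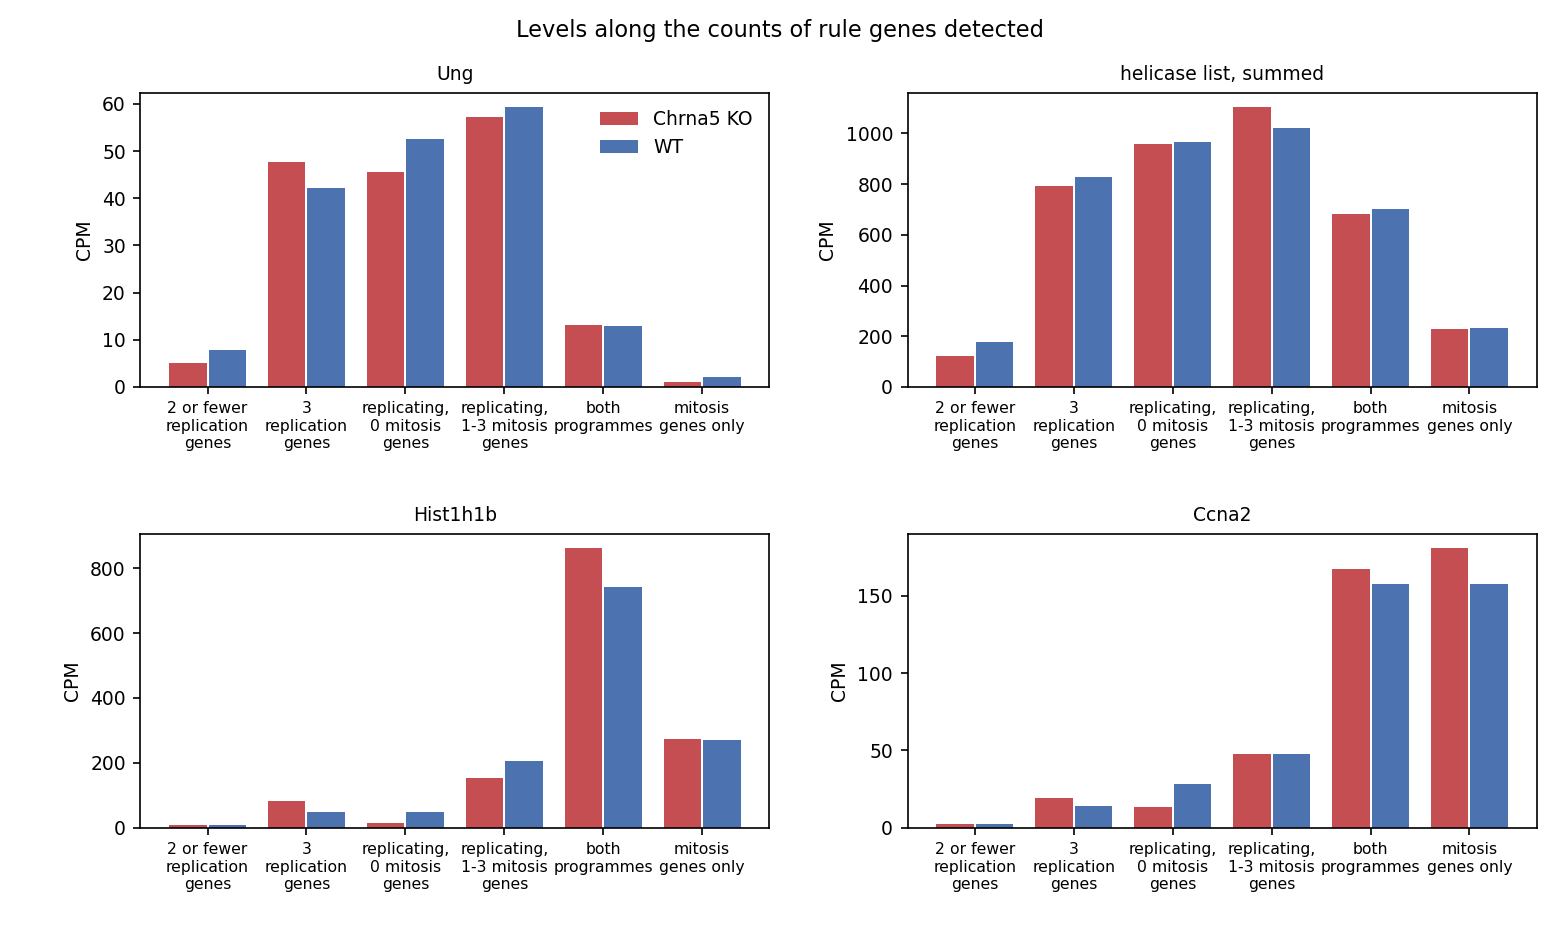
CPM (y axes) of Ung, the summed helicase list, Hist1h1b and Ccna2 in 6 classes of keratinocytes set by the number of rule genes detected (x axes), Chrna5 KO left of WT in each pair; each bar is the sum over the cells of 1 class of 1 library. In both libraries Ung and the helicase list are high in the replicating classes and in cells with 3 replication genes, and Hist1h1b and Ccna2 are highest where mitosis genes are detected.

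Per cell, the helicase transcripts of replicating keratinocytes overlapped almost fully between the libraries, with a median of 10.8 UMIs per 10000 in knockout cells (quartiles 8.43 and 13.5) and 10.5 in WT cells (8.03 and 12.6). Mitotic keratinocytes had medians of 2.31 and 2.24. Other keratinocytes had medians of 0.650 and 0.775 and upper deciles of 3.45 and 6.33.

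Knockout and WT replicating cells were then compared gene by gene. Of the 6780 measured genes, 124 (1.83%) had a ratio of knockout over WT of at least 1.5, and 223 (3.29%) had a ratio of at most 1/1.5. The median log2 ratio over all of them was close to 0. Counts in the lists below are read against these fractions.

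The levels of the rule genes are given as a description, since cells were chosen by holding them. Ccne1, which encodes the cyclin that starts S phase with Cdk2 and lies on chromosome 7 at 38097984-38107534 (minus strand, GRCm38, GENCODE vM21), had 41.0 CPM in knockout and 24.6 CPM in WT replicating cells, a ratio of 1.66 (1.27 to 2.17). Its partner gene Ccne2 had 52.9 and 39.0 CPM, a ratio of 1.36 (1.08 to 1.70). Mcm10, which helps activate the helicase, had 24.7 CPM in knockout and 34.5 CPM in WT cells, a ratio of 0.715 (0.527 to 0.958). The ratios of the 5 others lay between 0.889 for Uhrf1, which guides DNA methylation onto new strands, and 1.22 for the origin loader gene Cdc6.

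Of the replicative helicase genes, 0 of 10 measured were past 1.5-fold between knockout and WT replicating cells. Mcm2 had 111 CPM in knockout and 111 CPM in WT replicating cells. Mcm3 had 172 and 171 CPM, and Mcm4 had 139 and 132 CPM. These 3 subunits of the MCM ring had ratios from 1.00 to 1.05. Mcm5 had 141 CPM in knockout and 143 CPM in WT cells, and Mcm7 had 125 and 110 CPM. Mcm6 had 184 and 155 CPM, a ratio of 1.18 (1.05 to 1.33), the only ring subunit whose interval left out 1. Cdc45, the factor that activates the ring, had 29.5 CPM in knockout and 31.7 CPM in WT cells. Of the GINS genes, Gins1 had 18.3 and 17.2 CPM, Gins2 99.5 and 95.7 CPM, and Gins4 40.2 and 33.4 CPM. Gins3, with 16 and 32 UMIs, was below the limit for measured genes. The median log2 ratio of the 10 measured genes was 0.07.

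In other keratinocytes 5 of the 10 helicase genes had a ratio of at most 1/1.5 and 9 of the 10 a ratio below 1, with a median log2 ratio of -0.59. Over all 11666 genes measured there, 6.39% were as far lower and 2.07% as far higher. In mitotic cells 0 of the 10 were past the fold and the median was 0.09, where 4.5% of 11034 measured genes were as far lower and 1.95% as far higher. Mcm5, for example, had 10.7 CPM in knockout and 23.4 CPM in WT other keratinocytes, a ratio of 0.459, but 48.9 and 53 CPM in mitotic cells. Other keratinocytes include those just short of the rule, with 3 replication genes, which were 64 in the knockout and 173 in the WT library. In those with 2 or fewer replication genes, the summed helicase list had 121 CPM in knockout and 177 CPM in WT cells. The difference between classes was not tested.

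**Figure D4:**
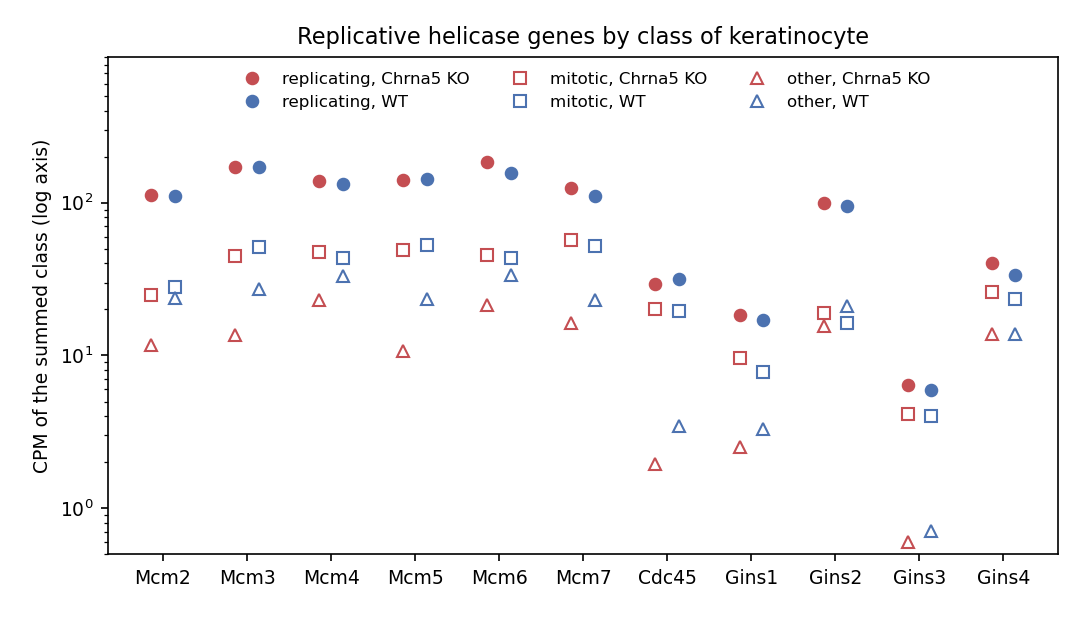
Levels of the 11 helicase genes (x axis) in CPM on a log axis (y axis) in replicating, mitotic and other keratinocytes; each symbol is the sum over the class in 1 library, Chrna5 KO left of WT. Filled circles of both libraries coincide for most genes, while the open triangles of other keratinocytes are lower in the knockout for 9 of the 10 measured genes.

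Licensing genes lay close to 1 in ratio. Cdt1, which loads the ring onto origins, had 64.9 CPM in knockout and 63.1 CPM in WT replicating cells, and its inhibitor Gmnn had 125 and 128 CPM. Of 9 measured genes, 0 were past 1.5-fold, and the ratios ran from 0.809 for Orc1 to 1.32 for Orc4, both subunits of the origin recognition complex.

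At the fork, 1 of 32 measured genes was past 1.5-fold and the median log2 ratio was 0.10. Pole2, a subunit of the leading-strand polymerase, had 21.1 CPM in knockout and 12.9 CPM in WT replicating cells, from 53 and 69 UMIs, a ratio of 1.64 (1.12 to 2.38). Prim1, the primase subunit that makes RNA primers, had 95.1 and 65.7 CPM, a ratio of 1.45 (1.22 to 1.71). Pcna, the sliding clamp, had 245 and 201 CPM, a ratio of 1.22 (1.10 to 1.35). The lowest ratio belonged to Pold2, a subunit of the lagging-strand polymerase, with 31.8 CPM in knockout and 40.5 CPM in WT cells. Lig1, which joins Okazaki fragments, had 170 and 154 CPM.

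All 19 nucleotide genes were measured and 0 were past 1.5-fold. Rrm2, the regulated subunit of ribonucleotide reductase, had 125 CPM in knockout and 127 CPM in WT replicating cells. The highest ratios were 1.25 for the thymidine kinase gene Tk1 (82.8 and 66.0 CPM) and 1.21 for the thymidylate synthase gene Tyms (138 and 114 CPM).

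Among genes that copy chromatin, 1 of 19 measured was past 1.5-fold, on the low side, and the median log2 ratio was 0.06. Hist1h2ap had 248 CPM in knockout and 343 CPM in WT replicating cells, a ratio of 0.722 (0.658 to 0.791). Hist1h1b had 117 and 157 CPM, a ratio of 0.748 (0.653 to 0.856), and Hist1h1c had 41.4 and 64.7 CPM, a ratio of 0.639 (0.509 to 0.798), past 1.5-fold. The intervals of these 3 histone genes lay below 1, whereas Hist1h2ae had 132 and 127 CPM, a ratio of 1.04 (0.907 to 1.18). The assembly factor genes Chaf1a and Asf1b had ratios of 1.17 and 1.13, and Slbp, which binds histone transcripts, had 152 and 145 CPM, all with intervals that span 1. Histone gene copies are alike in sequence, and most of their transcripts lack the poly(A) tail, so these counts are uncertain.

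Of 17 measured checkpoint and repair genes, 0 were past 1.5-fold. The highest ratios were 1.41 for Brca2, a gene of recombination repair (51.0 and 36.2 CPM), and 1.41 for the mismatch repair gene Msh6 (40.6 and 28.7 CPM). The lowest was 0.778 for Bard1, the partner of Brca1. Of the cyclin-dependent kinase inhibitors, Cdkn1a (p21) had 246 CPM in knockout and 253 CPM in WT replicating cells, below the 413 and 412 CPM of other keratinocytes, and Cdkn1b (p27) had 37.4 and 26.3 CPM.

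Upstream regulators had 3 of 19 measured genes past 1.5-fold on the high side and 0 on the low side. Tfdp2, a binding partner of E2F proteins, had 64.9 CPM in knockout and 37.9 CPM in WT replicating cells, a ratio of 1.71 (1.39 to 2.12). Myc, a driver of growth and cycle entry, had 124 and 77.2 CPM, a ratio of 1.61 (1.38 to 1.87). E2f2 had 33.4 and 22.2 CPM, a ratio of 1.51 (1.13 to 2.01). Tfdp2 and Myc were higher in the knockout in other keratinocytes too, with ratios of 1.44 and 1.68, and E2f2 had 1.06 there. E2f7 and E2f8, the repressor members, had ratios of 1.36 and 1.34, while Ccnd1 had 143 and 164 CPM, a ratio of 0.870 (0.767 to 0.985).

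Late-cycle genes outside the rule had 2 of 21 measured members past 1.5-fold, both on the high side. Kif20b, a kinesin of cell division, had 26.7 CPM in knockout and 13.1 CPM in WT replicating cells, from 67 and 70 UMIs, a ratio of 2.04 (1.44 to 2.90). Nusap1, which bundles spindle microtubules, had 28.3 and 15.9 CPM, a ratio of 1.78 (1.28 to 2.47). Mki67, the proliferation antigen, had 167 and 118 CPM, a ratio of 1.42 (1.25 to 1.61), and in mitotic cells 646 and 450 CPM.

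Interferon response genes had the lowest median of the lists with more than 2 measured genes, a log2 ratio of -1.58. All 4 measured genes were past 1.5-fold on the low side in replicating cells, from a list of 24 genes. Ifi27l2a (chromosome 12, 103442167-103443680, minus strand), an interferon-induced gene, had 22.3 CPM in knockout and 247 CPM in WT replicating cells, a ratio of 0.0902 (0.0677 to 0.118). It was found in 21.4% of knockout and 70.6% of WT replicating cells. Bst2, which tethers viruses to the membrane, had 5.18 and 18.8 CPM, and Ifi35 had 7.17 and 17.5 CPM. The 4 genes were also lower in the other keratinocytes of the knockout, with ratios from 0.121 to 0.663.

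Differentiation genes of the spinous layer had 3 of 8 measured genes past 1.5-fold on the low side and 1 on the high side. Krt10 (chromosome 11, 99385254-99389364, minus strand) had 285 CPM in knockout and 707 CPM in WT replicating cells, a ratio of 0.403 (0.372 to 0.437), against 1948 and 1806 CPM in other keratinocytes. A single cell carried 42.9% of the knockout and 31.6% of the WT Krt10 UMIs of the replicating cells. In replicating cells with at least 2% Krt5 and Krt14, the log2 ratio of Krt10 was 0.90, the opposite direction, so this difference did not hold in cells rich in those keratins. Whether the change follows the keratin level or the single cells was not tested. Calm4, a calmodulin-like gene of differentiating skin, had 535 and 931 CPM, a ratio of 0.575, and Sbsn (suprabasin) had 195 and 336 CPM, a ratio of 0.580, with 25.4% of its WT UMIs in a single cell and a log2 ratio of 0.0494 in the same keratin-rich cells. Mt4, a metallothionein of differentiating epithelium, had 42.6 and 19.4 CPM, a ratio of 2.20 (1.66 to 2.90), and 2.13 in other keratinocytes.

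Of the granular gene UMIs in the WT replicating cells, 646 of 803 (80.4%) lay in 1 cell. The filaggrin gene Flg had 2 UMIs in knockout and 447 in WT replicating cells, of which 98.4% lay in a single WT cell. Casp14, a caspase of cornifying cells, had 28 and 112 UMIs, with 18.8% of the WT count in its highest cell. Crct1, a gene of the cornified envelope cluster, had 2 and 299 UMIs, 95.7% of the WT count in a single cell. Summed over 8 granular genes, the level was 21.1 CPM in knockout and 150 CPM in WT replicating cells, and 18.7 and 29.6 CPM without the highest cell of each library.

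Basal genes had 0 of 13 measured members past 1.5-fold. Krt15, the keratin of quiet basal and bulge cells, came nearest with 1673 CPM in knockout and 1122 CPM in WT replicating cells, a ratio of 1.49 (1.43 to 1.55), and 1.47 in other keratinocytes. Trp63, the master regulator of stratified epithelium, had 258 and 296 CPM.

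Of 8 measured outer root sheath genes, 1 was past 1.5-fold in replicating cells, on the high side, and 5 in other keratinocytes, on the low side. Krt17 had 1217 CPM in knockout and 1475 CPM in WT replicating cells, and 683 and 1697 CPM in other keratinocytes, so replicating over other was 1.78 in the knockout and 0.869 in the WT library. Sox9, a follicle stem cell factor, gave 1.56 and 0.877, and Fst, the activin antagonist follistatin, gave 2.07 and 0.971. Lhx2, a homeobox factor of the bulge (chromosome 2, 38339281-38369733, plus strand), had 29.1 CPM in knockout and 15.3 CPM in WT replicating cells, a ratio of 1.90 (1.37 to 2.64), but 8.11 and 22.8 CPM in other keratinocytes. Over the 8 measured genes of the list, the median of replicating over other was 1.67 in the knockout and 0.924 in the WT library. Their median log2 ratio of knockout over WT in replicating cells was -0.02, and -0.82 in replicating cells with at least 2% Krt5 and Krt14. The Lhx2 difference rests on few cells, as 13.7% of knockout and 11.5% of WT replicating cells held it, and its log2 ratio was -1.52 in cells with at least 2% Krt5 and Krt14.

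**Figure D5:**
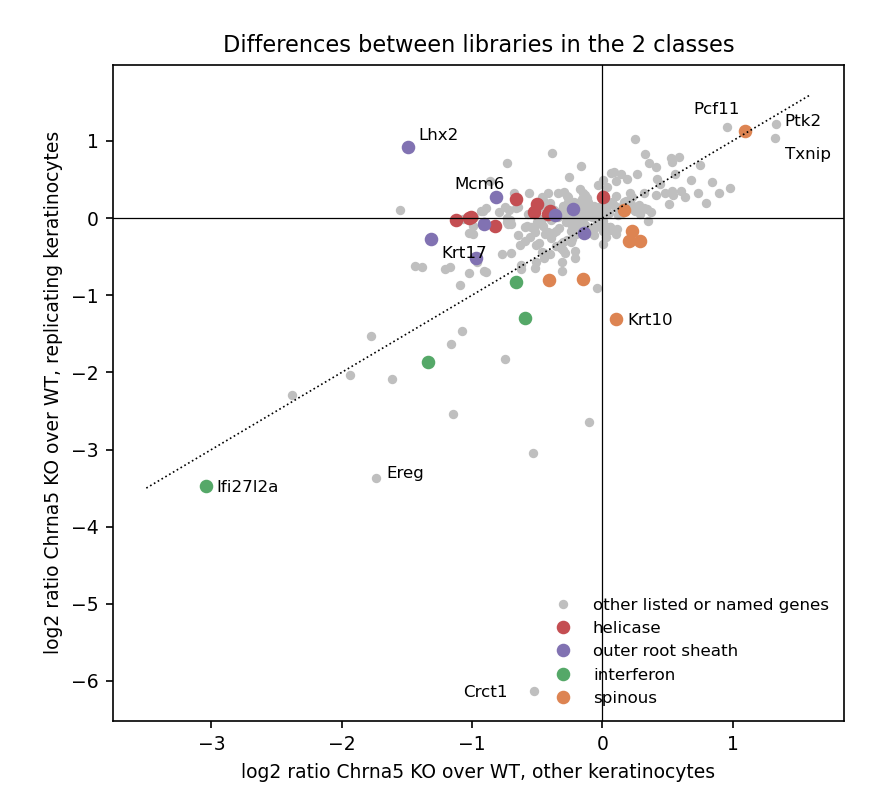
Log2 ratio of Chrna5 KO over WT in replicating keratinocytes (y axis) against that in other keratinocytes (x axis); each point is a listed or named gene outside the rule with at least 100 UMIs in each class, and the dotted line marks equal ratios. Helicase and most outer root sheath genes lie above the line, with lower ratios in other cells, Ifi27l2a is low in both, and Krt10 is low in replicating cells only.

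Ccl20, a chemokine for Ccr6-bearing lymphocytes, had 53.3 CPM in knockout and 261 CPM in WT cells, a ratio of 0.204 (0.170 to 0.244), and Nppb, a natriuretic peptide gene, had 76.0 and 313 CPM, a ratio of 0.243 (0.208 to 0.283). Ccl2, the monocyte chemokine, had 49.4 and 142 CPM, a ratio of 0.348 (0.286 to 0.421). In other keratinocytes the ratios were 0.192 for Ccl20, 0.261 for Nppb and 0.292 for Ccl2. A single knockout cell held 42.7% of the Ccl2 and 26.9% of the Ccl20 UMIs of the knockout replicating cells. Of the 11 measured inflammation genes, 2 were past 1.5-fold on the low side (Ccl20 and Ccl2) and 1 on the high side (Tslp). Of 10 measured genes of EGF receptor signalling, 3 were past 1.5-fold on the low side and 0 on the high side. The ligand genes Areg (290 and 459 CPM) and Epgn (347 and 537 CPM) had ratios of 0.632 and 0.646, and Ereg had 7 and 154 UMIs, 68.8% of the WT count in a single cell. The receptor gene Egfr had 50.6 and 39.0 CPM, a ratio of 1.30 (1.03 to 1.62).

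Of 17 measured cholesterol synthesis genes, 4 were past 1.5-fold on the low side and 0 on the high side, with a median log2 ratio of -0.32. Sqle, the gene of squalene epoxidase, had 22.7 CPM in knockout and 36.4 CPM in WT replicating cells, a ratio of 0.624 (0.456 to 0.842), and its log2 ratio was 0.0247 in cells with at least 2% Krt5 and Krt14. In other keratinocytes 7 of the 17 were past 1.5-fold on the low side.

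The gene with the highest ratio among those with at least 300 UMIs was Ptk2, the gene of focal adhesion kinase (chromosome 15, 73205102-73423280, minus strand). It had 62.5 CPM in knockout and 26.9 CPM in WT replicating cells, a ratio of 2.33 (1.84 to 2.94), and 2.52 in other keratinocytes. Pcf11, which ends transcription, followed with 86.0 and 37.9 CPM, a ratio of 2.27 (1.87 to 2.76). Txnip, a brake on glucose uptake, had 80.4 and 39.2 CPM, a ratio of 2.05 (1.68 to 2.50). All 3 were more than 1.5-fold higher in the other keratinocytes of the knockout too. Lap3, a peptidase gene, had 76.8 and 42.7 CPM, a ratio of 1.80 (1.48 to 2.19), but 28.8 and 37.7 CPM in other keratinocytes. A single knockout cell held 19.7% of its UMIs, and its log2 ratio was -0.0249 in cells with at least 2% Krt5 and Krt14. The other 6 were Sertad1, Tfdp2, Sirt1, Myc, Tslp and Akap9, with ratios from 1.59 to 1.73. A single knockout cell held 39.5% of the Tslp UMIs, and the log2 ratio of Tslp, an epithelial cytokine gene, was -0.66 in cells with 5 or more replication genes.

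The 10 lowest ratios belonged to Flg, Crct1, Ifi27l2a, Ly6g6c, Sprr1b, Klk7, Ccl20, Defb6, Nppb and Krt77. Defb6, Krt79 and Cst6 were the 3 of 6 measured upper follicle genes past 1.5-fold on the low side. Of the 10 lowest, Ifi27l2a, Ccl20 and Nppb had less than 10% of their WT UMIs in any single cell. For Ly6g6c, Defb6 and Krt77 a single WT cell held 47.0%, 42.9% and 44.1%, and for Sprr1b and Klk7 it held 21.9% and 30.7%. The log2 ratio of Ly6g6c was 1.08, the opposite direction, in cells with at least 2% Krt5 and Krt14.

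Markers of other cell types were summed in the replicating cells. The 7 markers of T cells summed to 11.1 CPM in knockout and 61.8 CPM in WT replicating cells, against 51.7 and 42.0 CPM in other keratinocytes. The knockout cells had Nkg7 at 0, and 2 knockout and 5 WT cells held 5 or more T cell UMIs. Langerhans cell markers summed to 217 and 207 CPM, mostly Epcam, with Itgax at 0 in both. Melanocyte markers summed to 73.3 and 91.1 CPM with 1 and 6 such cells, and fibroblast markers to 99.1 and 84.0 CPM, mostly Sparc, with Lum at 0 in the knockout. Endothelial markers summed to 2.39 and 1.87 CPM, with Cdh5 and Kdr at 0 in both, and muscle markers to 0 and 0.746 CPM. Their part in the differences above was not tested.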

How the data were processed

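Single-cell RNA was measured in 1 Chrna5 knockout and 1 WT library. The deposited matrices hold unnormalized UMI counts as whole numbers. Cell Ranger 3.0.2, Seurat 3.0 and the build mm10 are named in the submitters' processing notes, and the matrix headers name software version 3.1.0. The aligner settings and any filter before deposit are not stated in the labels.

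Barcodes were kept with at least 500 UMIs, 300 genes and at most 20% mitochondrial UMIs. Doublets were scored with Scrublet in scanpy 1.11.5 at an assumed rate of 0.08 and were kept in the main values. For each library the UMIs of a class were added up and scaled by its total (CPM). Gene ratios of knockout over WT carry exact conditional binomial 95% intervals. These were tested only on simulated counts drawn without clumping in single cells, so the test does not cover genes with clumped UMIs. Shares carry Clopper-Pearson intervals, and ratios of shares carry intervals from a normal approximation on the log scale. Intervals cover counting error only. Where a group had 0 UMIs, 3 were used as a floor. A gene counted as measured from 100 UMIs in the 2 libraries together, and as past the fold at 1.5. Named were the rule genes, the helicase, genes of the lists with their extremes, and the 10 highest and lowest ratios among genes with at least 300 UMIs, without rule, mitochondrial and predicted genes. The cells and lists were chosen with earlier results of these data known. TMM factors came from edgeR 4.0.16 in R 4.3.3. Alternatives were thinning, other thresholds, scalings and cell filters. Some genes of the lists are not reported here.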

Additional observations from a re-analysis of the deposited data

Results flagged for a closer look

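The share of replicating keratinocytes moved opposite to the mitotic share. Its ratio of knockout over WT was 0.547, while that of mitotic keratinocytes was 1.13, and the difference between the 2 ratios was not tested across animals. The 2 shares are not independent, since the rule counts a cell with 4 or more replication genes as mitotic once it holds 4 mitosis genes. With no limit on mitosis genes, keratinocytes with 4 or more replication genes had a ratio of 0.932 (0.836 to 1.04).

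Lhx2 was higher in the knockout replicating cells, with a ratio of 1.90, and lower in the other keratinocytes of the same library, with a ratio of 0.356. It had 73 UMIs in knockout and 82 in WT replicating cells, with 16.4% and 18.3% of them in a single cell. The difference between the classes was not tested.

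Outside the keratin limit, 28 of 2555 knockout barcodes (1.10%) and 55 of 3050 WT barcodes (1.80%) met both gene counts of the rule. They were not used in the comparisons.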

How the results depend on the processing

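The share of replicating keratinocytes was computed under 18 alternatives, of which 9 were added after seeing the data. In 13 of them the ratio of knockout over WT stayed within the reported interval, on the low side. It was 0.682 after thinning to 10000 UMIs, 1.11 after thinning to 5000 UMIs, 0.932 with no exclusion by mitosis genes, 0.697 with Krt17 ranges weighted as in the WT library, and 0.769 for the helicase count with no exclusion. Genes past 1.5-fold numbered 124 higher and 223 lower. They were 187 higher as a mean over cells, 79 higher after thinning (of 4416 measured, 1.79% against 1.83%), 76 higher in cells with 5 or more replication genes (of 5086, 1.49%), and 586 higher and 787 lower from 20 UMIs up (of 10246). TMM scaling kept 124 and 217 of the same genes, and leaving out each gene's highest cell in each library kept 92 and 185. Of the 124 higher and 223 lower genes, 29 and 65 were again past the fold after thinning to 10000 UMIs, 31 and 99 in cells with 5 or more replication genes, and 33 and 73 in cells with at least 2% Krt5 and Krt14.

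Of 178 gene ratios under 11 alternatives, 7 values changed direction. With at least 2% Krt5 and Krt14 the log2 ratios were 0.90 for Krt10, -0.0249 for Lap3, -1.52 for Lhx2, 1.08 for Ly6g6c, 0.0494 for Sbsn and 0.0247 for Sqle, and that of Tslp was -0.66 with 5 or more replication genes. The median log2 ratio of the spinous list was 0.27 and that of the outer root sheath list -0.82 with at least 2% Krt5 and Krt14. The cause was not tested. Without doublet scores of 0.25 or more, the share ratio was 0.521 and 137 genes were higher and 204 lower. Genes with under 100 UMIs were not compared.

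No paired analysis was possible because each genotype has 1 library, and for the same reason no library was left out.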

Other observations

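Stress and growth genes that belong in none of the groups above were close in level. Of 16 immediate early and heat shock genes, all measured, 0 were past 1.5-fold in replicating cells, and 13 had a ratio above 1. The heat shock genes Hspa1a and Hspa1b came nearest, with 256 and 324 CPM in knockout and 172 and 217 CPM in WT replicating cells. Of 17 measured ribosome biogenesis genes, 1 was past 1.5-fold on the low side, Pes1, which matures the large ribosomal subunit, with 25.9 CPM in knockout and 41.6 CPM in WT cells. The highest ratio of that list was 1.13, for Npm1, the gene of nucleophosmin.

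Among p53 targets, 1 of 11 measured genes was past 1.5-fold on each side. Gadd45a, a growth arrest and repair gene, had 45.8 CPM in knockout and 83.6 CPM in WT replicating cells, a ratio of 0.548 (0.442 to 0.674). Trp53inp1 had 49.0 and 29.5 CPM, a ratio of 1.66 (1.30 to 2.12). In other keratinocytes these ratios were 0.470 and 1.45.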
